A study of Mus musculus with 9 samples.

Results

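The secreted Wnt inhibitors described here are 10 genes, chosen by symbol from the 18484 genes that the deposited tables list: Sfrp1, Sfrp2, Sfrp4, Sfrp5, Frzb, Wif1, Dkk1, Dkk2, Sostdc1 and Dkk3. They were measured by RNA sequencing in 9 mammary tumours of BlgCre-NeuKI mice, with 1 library per tumour. In these mice a Cre recombinase driven by the beta-lactoglobulin promoter, active mainly in luminal cells of the mammary gland, switches on an activated rat Neu (Erbb2) allele that sits in the endogenous Erbb2 locus. All 9 tumours share this genotype. The 8 epithelial tumours were grouped by how far that locus was amplified: 5 were high-amplified and 3 not/low-amplified. All 5 high-amplified tumours were adenocarcinomas of no special type, AC(NST). Of these, MS1213.1, MS1163.1 and MS1163.2 grew in virgin mice, while MS1218.2 and MS1155.3 grew in parous ones. The not/low-amplified tumours were 2 adenosquamous carcinomas (ASQC, metaplastic tumours with squamous areas), MS1210.1 and MS1349.1, and the AC(NST) MS1166.1. These and the mammary sarcoma, MS1156.1, all came from parous mice. Amplification, histotype and parity are therefore nested in each other. The study's copy number assays disagreed on MS1218.2, whose label is high-amplified. Genomic qPCR scored its Neu copy number high, while droplet PCR and exome data did not. MS1213.1 was high by qPCR and amplified by exome data, but low by droplet PCR. The study's estimate of tumour cell purity from the RNA data was lower in MS1218.2 than in its other samples. MS1163.1 and MS1163.2 carry the same mouse number, and the age of the animals was not used here.

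Wnt proteins signal through Frizzled receptors and the co-receptors LRP5 and LRP6, and the canonical branch of the pathway stabilises β-catenin, which switches on target genes with TCF/LEF factors. Secreted inhibitors act outside the cell. The secreted Frizzled-related proteins (the Sfrp genes and Frzb) and WIF1 bind Wnt ligands, whereas DKK1, DKK2 and SOSTDC1 act at LRP5 and LRP6. DKK3 is a Dickkopf family member whose role in Wnt signalling is less clear. In the mammary gland both the epithelium and the surrounding stroma make such proteins, and Axin2, Wif1 and Notum are known as genes that canonical Wnt signalling itself can induce.

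The libraries held 12501225 to 23912429 counted reads. Normalized counts, used below unless another scale is named, are counts divided by 1 size factor per tumour, and 3 counts, taken as the limit of what a count of 0 allows, correspond to 2.11 to 4.19 normalized counts. Summed over marker genes, as TPM (a level per exon length, scaled to the same total in every tumour), a list of 12 epithelial genes, of which Krt8 was highest, reached 6149 to 15730 in the 8 epithelial tumours and 75.0 in the sarcoma, in which Ovol1 was at 0. A list of 16 fibroblast and mesenchymal genes, led by Col1a1, ranged from 1307 in MS1166.1 to 12257 in MS1218.2, and was 24793 in the sarcoma. MS1218.2 also had the highest sum of 9 leukocyte genes, led by Lyz2, at 10161 against 483 to 2854 in the other epithelial tumours. In such bulk tissue, fewer cells of a type and less RNA per cell cannot be told apart.

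Of the 10 genes, 8 had at least 10 counts in at least 3 epithelial tumours and entered the tests. Sfrp5 passed 10 counts in 2 tumours and Dkk1 in none. Dkk1 was at or near 0 in every tumour: MS1349.1 had 5.84 normalized counts, MS1218.2 had 1.85, and the other 7 tumours, sarcoma included, had 0.

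**Figure D1:**
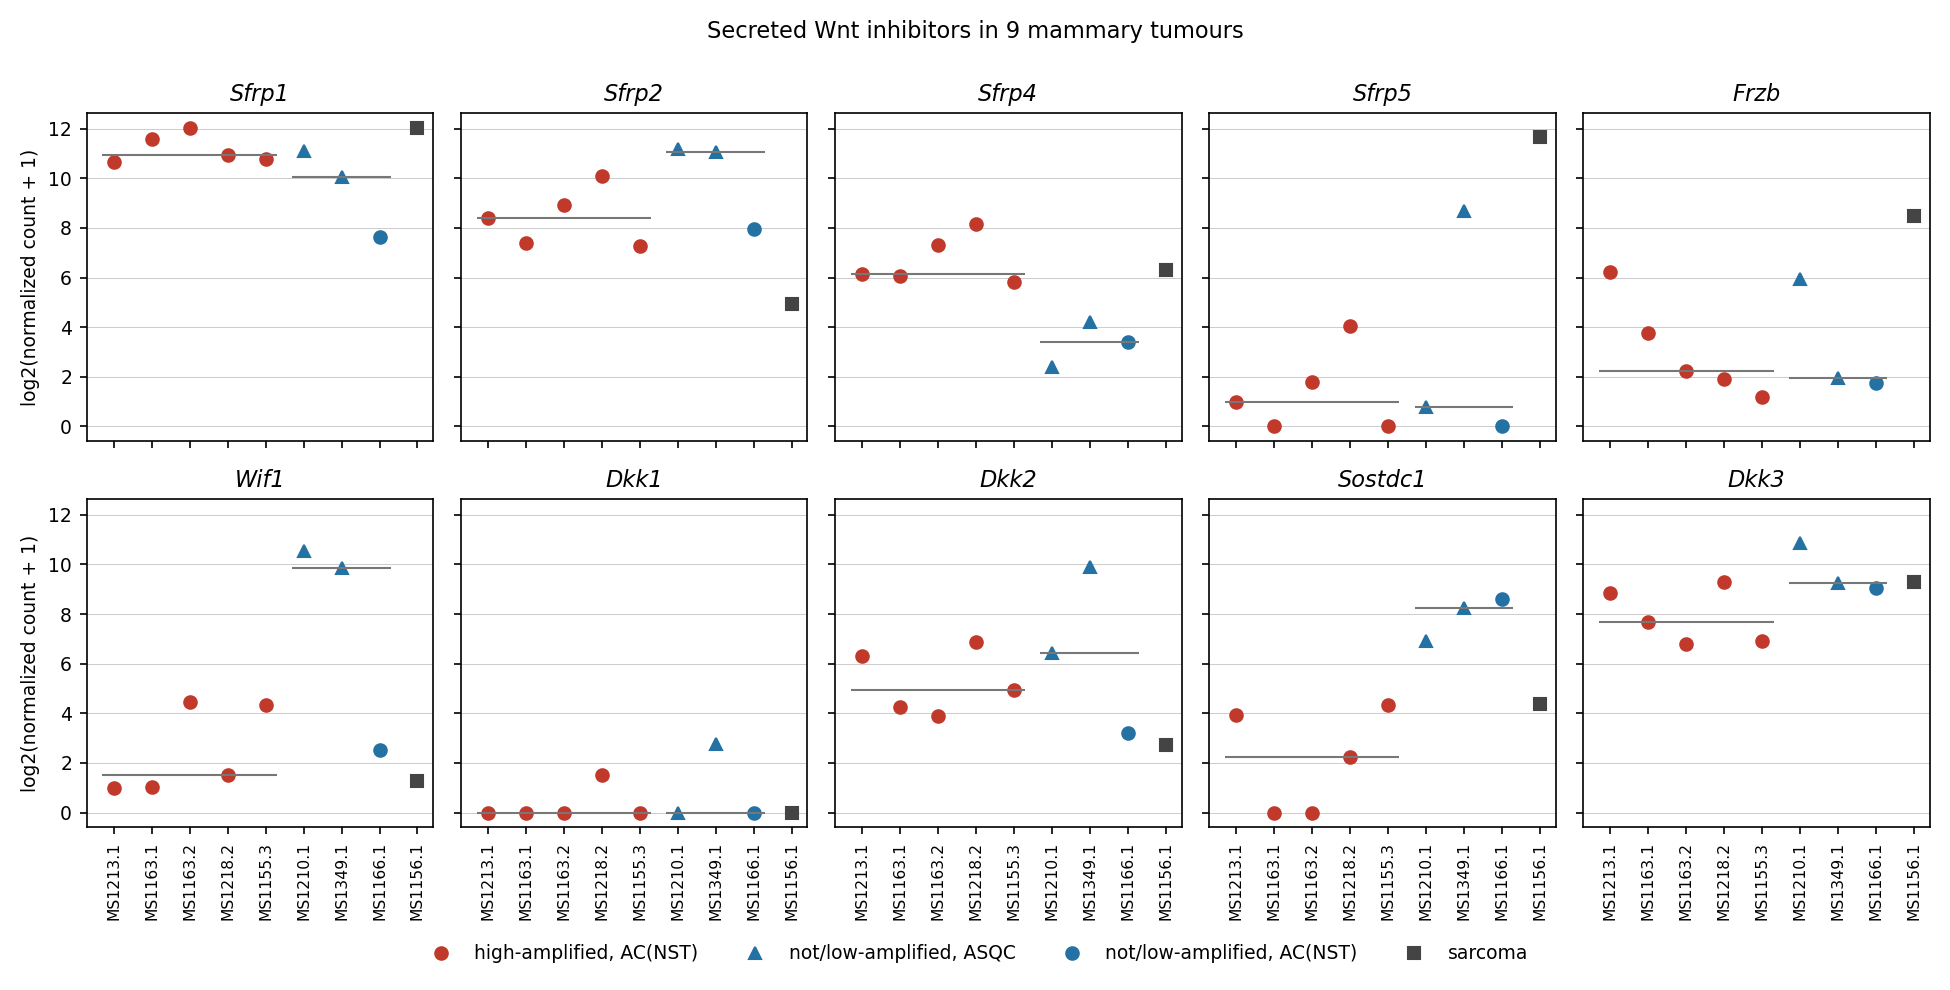
Level of each of the 10 genes in each tumour, as log2(normalized count + 1) on the vertical axis. Horizontal lines mark the median of the 5 high-amplified and of the 3 not/low-amplified tumours. Wif1 stands high in the 2 ASQC tumours, Sostdc1 in the 3 not/low-amplified tumours, Sfrp4 in the 5 high-amplified tumours, and Sfrp5 and Frzb in the sarcoma.

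Which inhibitor was most abundant differed between the tumours. On the TPM scale, Sfrp1 was the highest of the 10 in 4 of the 5 high-amplified tumours, where it made up 50.3% to 80.9% of their summed TPM. In MS1218.2, Sfrp2 led with 40.7% and Sfrp1 followed with 35.7%. Sfrp2 also led in both ASQC tumours, with 40.3% in MS1349.1 and 37.8% in MS1210.1, and Wif1 came second there with 15.8% and 21.6%. In MS1166.1 the highest was Sostdc1 with 40.3%, followed by Dkk3 with 28.7%. In the sarcoma it was Sfrp5, with 57.3%, followed by Sfrp1 with 31.4%. The summed TPM of the 10 genes was 158 to 372 in the high-amplified tumours, 685 and 537 in the ASQC tumours MS1210.1 and MS1349.1, 100.1 in MS1166.1 and 860 in the sarcoma. These shares are descriptions of single tumours, with no test.

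**Figure D2:**
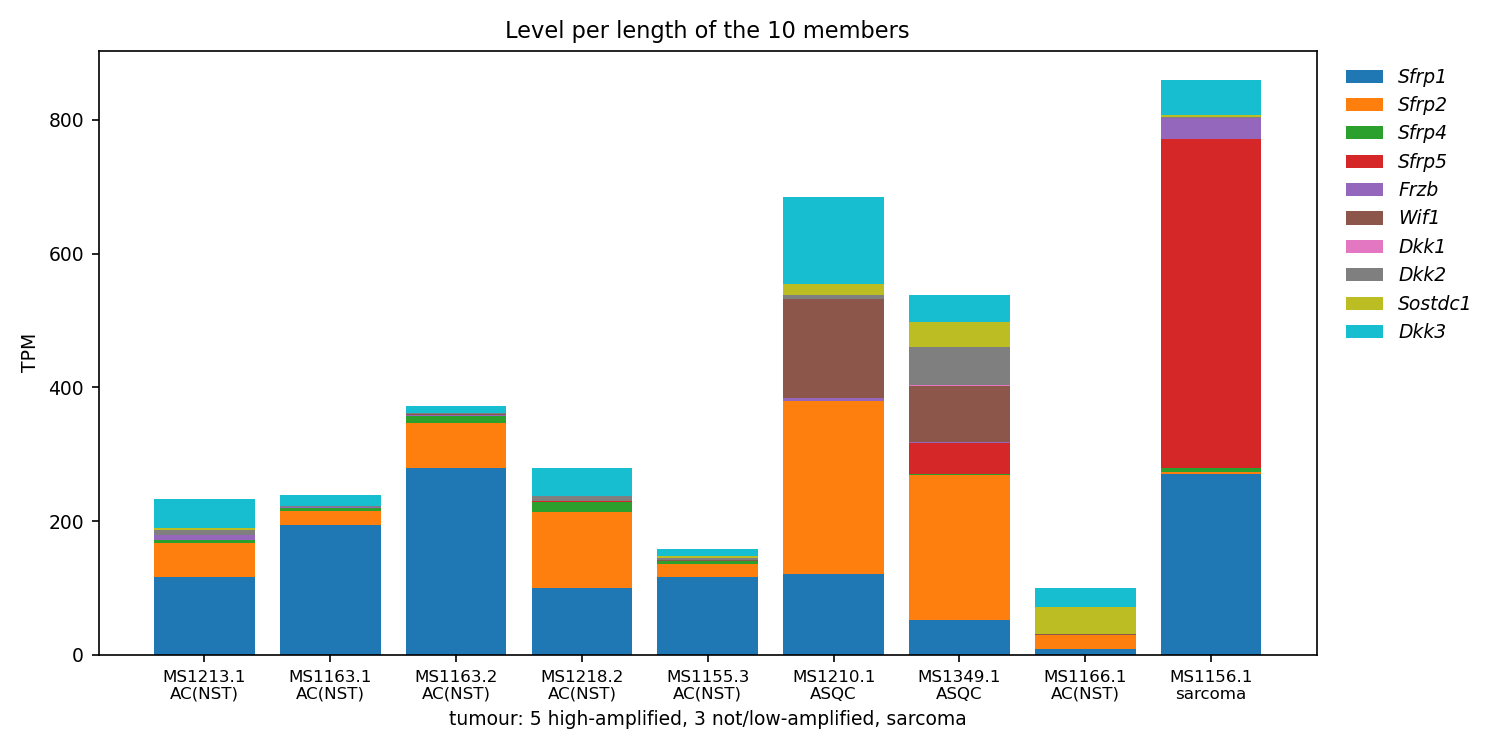
Stacked TPM (a level per exon length) of the 10 genes in each of the 9 tumours, 1 bar per tumour. Sfrp1 takes the larger part of the bar in 4 of the 5 high-amplified tumours, Sfrp2 and Wif1 that of the 2 ASQC tumours, and Sfrp5 that of the sarcoma.

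The main comparison asked which genes differ with amplification of the Erbb2/Neu locus. EdgeR called none of the 8 tested inhibitors, at an adjusted p-value under 0.05 and a fold change over 2, against 0.921% of all 14007 genes tested. At an unadjusted p-value under 0.05 stood 6 of the 8 (Sfrp2, Sfrp4, Wif1, Dkk2, Sostdc1 and Dkk3), against 22.8% of all genes. DESeq2 called 3 of the 7 to which it gave an adjusted p-value, Sfrp4, Wif1 and Sostdc1, against 10.8% of all genes. The groups did not overlap for 2 of the 8, Sfrp4 and Sostdc1, against 15.6% of all genes. The fitted change was lower in the high-amplified tumours for 6 of the 8, with a median of -1.75 on the log2 scale beside 0.02 for all genes tested.

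**Figure D3:**
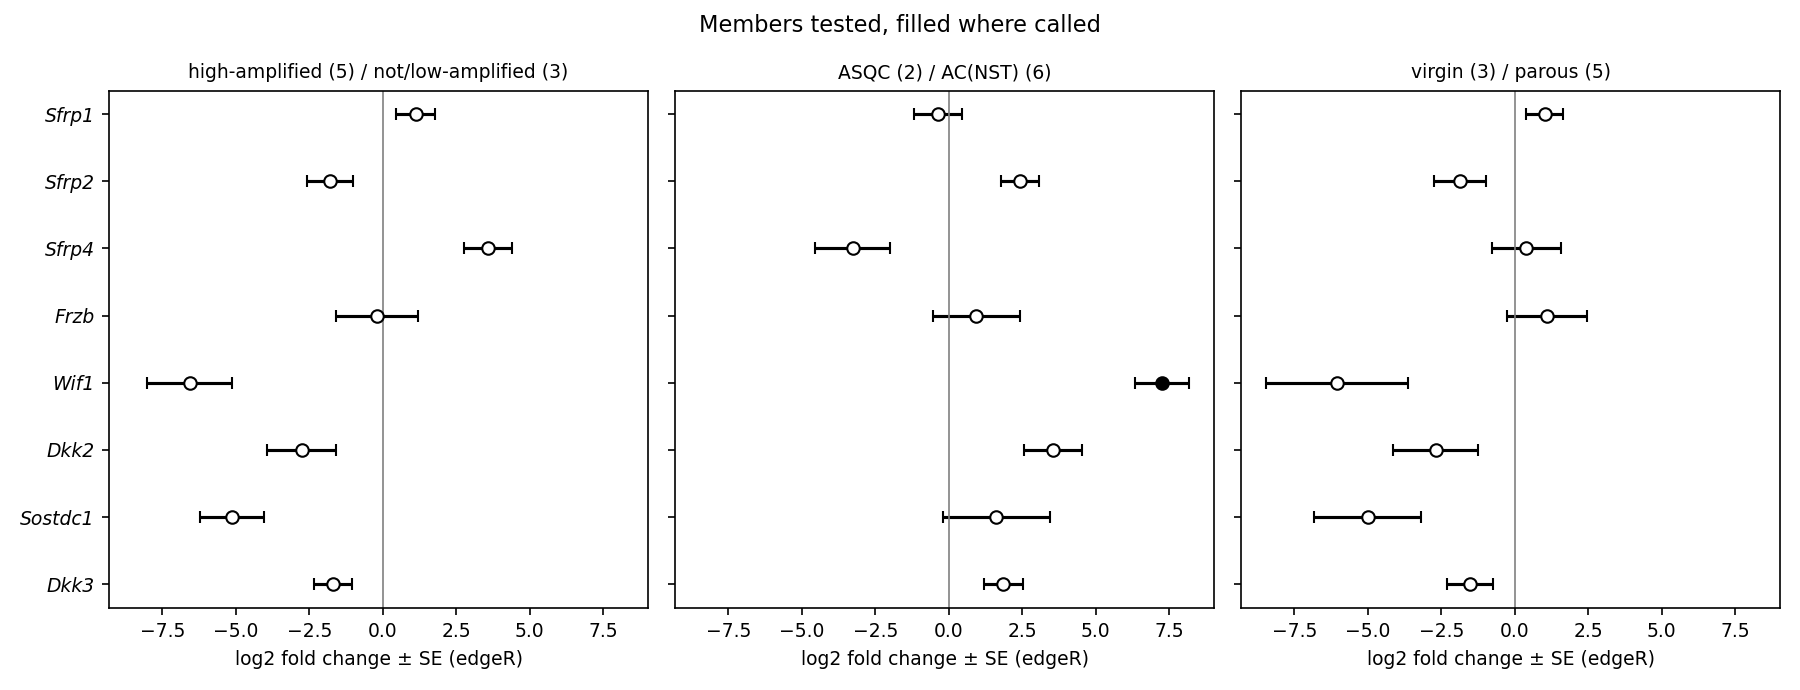
Log2 fold change with its standard error from edgeR (horizontal axis) for the 8 tested genes in the 3 comparisons of the epithelial tumours. Positive values are higher in the group named first, and a filled point marks a called gene, which is Wif1 in ASQC against AC(NST) alone.

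Among the Wnt-binding inhibitors, Sfrp1 (chr8:23411502-23449632, GRCm38) was abundant in most tumours. It had 3045 normalized counts in MS1163.1, 4142 in MS1163.2, 1599 in MS1213.1, 1751 in MS1155.3 and 1957 in MS1218.2. The not/low-amplified tumours had 199 in MS1166.1, 2206 in MS1210.1 and 1047 in MS1349.1. The groups overlapped through MS1210.1, and MS1166.1 stood far below the rest. The log2 fold change of the high-amplified tumours was 1.12 ± 0.65 (SE), with an adjusted p of 0.332 by edgeR. It was 2.02 without MS1210.1, 0.62 without MS1166.1 and 3.62 among the AC(NST) tumours alone (adjusted p = 0.0901), none of them a call.

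Sfrp4 (chr13:19623104-19632994), whose protein shares the Frizzled-like domain of this family, was the inhibitor that stood higher in every high-amplified tumour. Normalized counts were 65.1 in MS1163.1, 157 in MS1163.2, 70.3 in MS1213.1, 55.4 in MS1155.3 and 281 in MS1218.2, against 9.52 in MS1166.1, 4.22 in MS1210.1 and 17.5 in MS1349.1. Every high-amplified tumour thus exceeded the highest not/low-amplified one, the closest of them 3.16-fold. The log2 fold change was 3.59 ± 0.81 with an adjusted p of 0.0670 by edgeR, which missed the threshold, and 3.59 with an adjusted p of 3.82e-05 by DESeq2. Without MS1218.2, edgeR called it, at 3.05 with an adjusted p of 0.0346. With MS1218.2, the tumour with the highest value, set among the not/low-amplified tumours instead, the fold change was 0.14 with an adjusted p of 0.946. An exact two-sided permutation of the log2 values gave p = 0.0179, the smallest that the 56 splits of 5 and 3 tumours can give. This p is not adjusted and arises only where groups do not overlap, as they did not for 15.6% of all genes. The splits also count MS1163.1 and MS1163.2, of the same mouse number, as separate tumours.

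The fibroblast and mesenchymal list moved in the same direction as Sfrp4. Its summed TPM was 1909 to 12257 in the high-amplified and 1307 to 4101 in the not/low-amplified tumours, and 14 of its 16 genes, all of which passed the filter and none of which was at 0, were fitted higher in the high-amplified tumours, with a median log2 fold change of 1.10. EdgeR called none of the 16, DESeq2 called 2 as higher in the high-amplified tumours, and the groups did not overlap for 3. Over all genes, in either direction, DESeq2 called 10.8% and the groups did not overlap for 15.6%. Divided by that sum, Sfrp4 still did not overlap between the groups: it was 0.976 to 2.41 per 1000 TPM of the list in the high-amplified tumours and 0.0588 to 0.536 in the not/low-amplified ones. On this ratio, 0.744% of all genes stood higher in every high-amplified tumour. With the list's mean level as a covariate, the log2 fold change of Sfrp4 was 2.56, with an adjusted p of 0.123 by edgeR.

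Sfrp2 (chr3:83766321-83774316), which encodes another Frizzled-related protein, was highest in the ASQC tumours, with 2334 normalized counts in MS1210.1 and 2112 in MS1349.1. MS1166.1 had 249. The high-amplified tumours had 168 in MS1163.1, 487 in MS1163.2, 334 in MS1213.1, 152 in MS1155.3 and 1099 in MS1218.2, so that MS1166.1 lay among them. The log2 fold change of the high-amplified tumours was -1.80 ± 0.77 with an adjusted p of 0.202 by edgeR. Among the AC(NST) tumours alone, with MS1166.1 as the only not/low-amplified tumour, its sign turned, to 0.84.

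Relative to the fibroblast and mesenchymal list, the amplification groups no longer overlapped for Sfrp2. It was 7.18 to 14.5 per 1000 TPM of the list in the high-amplified tumours and 16.3 to 125 in the not/low-amplified ones. The value of 16.3 was that of MS1166.1, which had the lowest list sum, 1307 TPM. Before division, Sfrp2 in MS1166.1 was 21.3 TPM, within the 20.4 to 114 of the high-amplified tumours. The ratio was chosen after seeing the data. With the list's level as a covariate, edgeR called Sfrp2, at -3.19 with an adjusted p of 0.0456. The same covariate also led to a call of Dkk3, described below. With it, edgeR called 183 of all 14007 genes by amplification. On the ratio to the list, 3 of the 8 tested inhibitors, Sfrp2, Sostdc1 and Dkk3, stood higher in every not/low-amplified tumour, against 4.03% of all genes.

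Wif1 (chr10:121033960-121100650) encodes Wnt inhibitory factor 1, which binds Wnt proteins through a domain unlike that of the Frizzled-related proteins. It had 1507 normalized counts in MS1210.1 and 931 in MS1349.1. In the other not/low-amplified tumour, MS1166.1, it had 4.76. The high-amplified tumours had 1.05 in MS1163.1, 21.1 in MS1163.2, 0.963 in MS1213.1, 19.3 in MS1155.3 and 1.85 in MS1218.2. Wif1 thus followed histotype, and MS1166.1 fell within the range of the high-amplified tumours. By amplification the log2 fold change was -6.57 ± 1.45 with an adjusted p of 0.0641 by edgeR. Without MS1166.1 it was -7.16 with an adjusted p of 0.0226, and without MS1218.2 -6.30 with 0.0473, both of them calls.

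Frzb (chr2:80411970-80447625) and Sfrp5 (chr19:42197971-42202252), also of the Frizzled-related family, were each high in single tumours. Frzb had 74.2 normalized counts in MS1213.1 and 60.5 in MS1210.1, 12.6 in MS1163.1, and 1.29 to 3.73 in the remaining 5 epithelial tumours. One tumour of each amplification group was thus high, and the log2 fold change was -0.19 ± 1.40 with an adjusted p of 0.945 by edgeR. Sfrp5 had 404 in MS1349.1, 15.7 in MS1218.2 and at most 2.49 in the other 6 epithelial tumours, so that it was not shared by the 2 ASQC tumours.

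Of the inhibitors that act at LRP5 and LRP6, Sostdc1 (chr12:36314139-36318452), which also binds bone morphogenetic proteins, was higher in every not/low-amplified tumour. Normalized counts were 389 in MS1166.1, 121 in MS1210.1 and 302 in MS1349.1. The high-amplified tumours had 14.4 in MS1213.1, 0 in MS1163.1 and MS1163.2, 3.70 in MS1218.2 and 19.3 in MS1155.3. The lowest not/low-amplified tumour exceeded the highest high-amplified one 6.26-fold, and the AC(NST) MS1166.1 was the highest of all. Its values therefore separated by amplification group and not by histotype, while those of Wif1 separated by histotype alone. Only MS1166.1 tells amplification from histotype here, so this contrast rests on that single tumour. The log2 fold change was -5.13 ± 1.10 with an adjusted p of 0.0587 by edgeR and -5.18 with an adjusted p of 2.46e-05 by DESeq2. Without MS1218.2 edgeR gave -4.95 with an adjusted p of 0.0414, a call, and among the AC(NST) tumours alone -5.71 with 0.104. With MS1218.2, at 3.70, set among the not/low-amplified tumours instead, the groups overlapped. The log2 fold change was then -4.55 with an adjusted p of 0.0935 by edgeR, not a call. For the groups as labelled, the exact two-sided permutation p was 0.0179, again the smallest possible and with the same limits as for Sfrp4.

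The epithelial list also stood higher in every not/low-amplified tumour, with summed TPM of 11664 to 15730 against 6149 to 8570, and 11 of its 12 genes were fitted lower in the high-amplified tumours, with a median log2 fold change of -1.02. EdgeR called 1 of the 12, Ovol1, DESeq2 called 6, all lower in the high-amplified tumours, and the groups did not overlap for 6. Over all genes, in either direction, these shares were 0.921%, 10.8% and 15.6%. Divided by that sum, Sostdc1 still did not overlap: it was 2.57 in MS1166.1, 1.39 in MS1210.1 and 3.03 in MS1349.1 per 1000 TPM of the list, against 0 to 0.423 in the high-amplified tumours. On this ratio, 0.372% of all genes stood higher in every not/low-amplified tumour, and Sfrp1 and Sfrp4, like 43.5% of all genes, stood higher in every high-amplified one. The list of 9 basal and myoepithelial genes, led by Krt14, summed to 1371 to 7762 TPM in the not/low-amplified tumours. It summed to 170 to 1365 in the high-amplified ones. Gene by gene the list was mixed: 4 of the 9 were fitted lower in the high-amplified tumours and 5 higher, with a median log2 fold change of 0.38. The part of this list in the difference was not tested.

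Dkk2 (chr3:132085292-132180304) rested on 1 tumour. MS1349.1 had 959 normalized counts, while the other not/low-amplified tumours had 85.8 in MS1210.1 and 8.33 in MS1166.1. The high-amplified tumours had 17.8 in MS1163.1, 13.7 in MS1163.2, 79.0 in MS1213.1, 29.6 in MS1155.3 and 118 in MS1218.2, which spanned MS1210.1. The log2 fold change was -2.76 ± 1.17 with an adjusted p of 0.199 by edgeR, and without MS1349.1 it turned to 0.14. Among the AC(NST) tumours alone it was 2.61.

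Dkk3 (chr7:112116017-112159057) was present in every tumour. It had 522 normalized counts in MS1166.1, 1845 in MS1210.1 and 607 in MS1349.1, against 206 in MS1163.1, 111 in MS1163.2, 455 in MS1213.1, 121 in MS1155.3 and 618 in MS1218.2. The groups overlapped only through MS1218.2, the epithelial tumour with the highest fibroblast and mesenchymal sum. The log2 fold change was -1.69 ± 0.65 with an adjusted p of 0.165 by edgeR, and -0.89 without MS1210.1. Per 1000 TPM of the fibroblast and mesenchymal list, Dkk3 was 22.0 to 32.0 in the not/low-amplified and 2.11 to 7.85 in the high-amplified tumours. With the list's level as a covariate the log2 fold change was -2.67 with an adjusted p of 0.0426, a call.

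**Figure D4:**
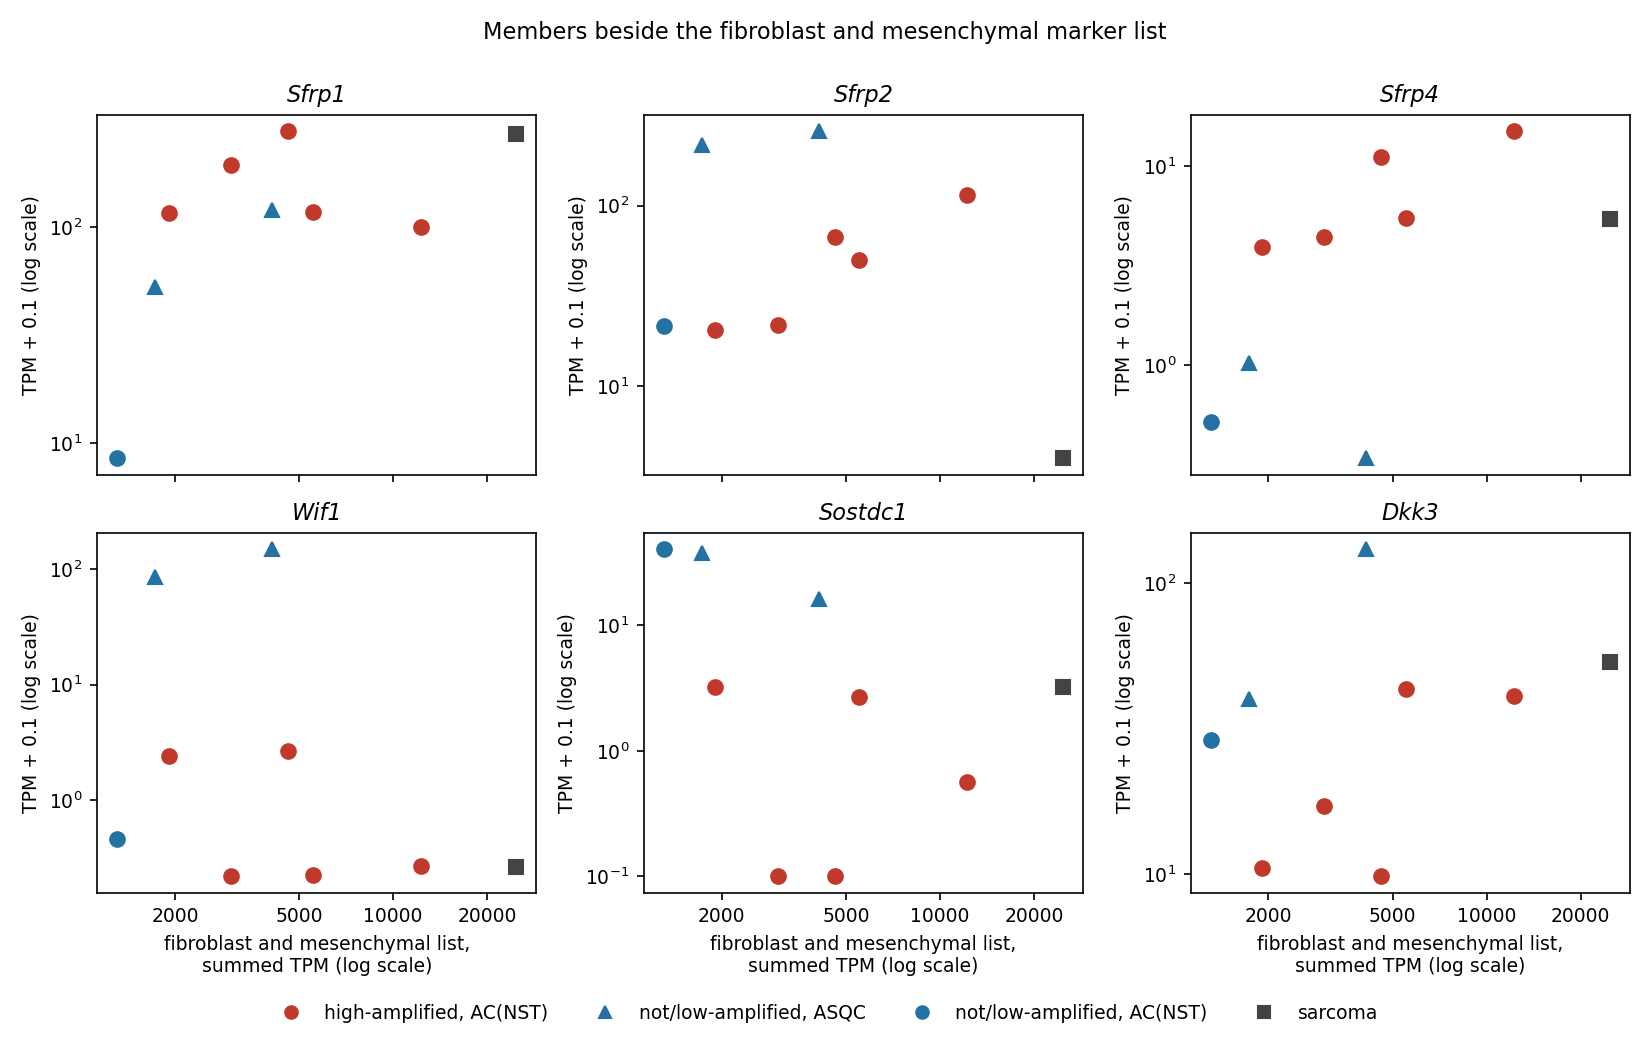
TPM of 6 inhibitors (vertical axes, with 0.1 added, log scale) against the summed TPM of 16 fibroblast and mesenchymal genes (horizontal axes, log scale), 1 point per tumour. Sfrp4 is below 1 TPM in the 3 not/low-amplified tumours, whose list sums are 1307 to 4101, against 1909 to 12257 in the high-amplified ones. Wif1 and Sfrp2 are highest in the ASQC tumours. The sarcoma, with the highest list level, has Sfrp1 and Dkk3 but little Sfrp2 and Wif1.

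The second comparison set the 2 ASQC tumours against the 6 AC(NST) tumours. EdgeR called 1 of the 8 tested inhibitors, Wif1, higher in ASQC, as were 0.221% of all genes. At an unadjusted p-value under 0.05 stood 5 of the 8 (Sfrp2, Sfrp4, Wif1, Dkk2 and Dkk3), against 8.72% of all genes. DESeq2 called 4 of the 6 to which it gave an adjusted p-value, Sfrp2, Wif1 and Dkk2 as higher and Sfrp4 as lower in ASQC, against 3.44% of all genes. For Wif1 and Sfrp2 the histotypes did not overlap, with ASQC on the higher side, as for 5.3% of all genes. Divided by the fibroblast and mesenchymal list, 4 of the 8 did so, Sfrp2, Wif1, Dkk2 and Dkk3, against 3.09% of all genes, and divided by the epithelial list Sfrp2 and Wif1 did, against 1.42%.

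Wif1 had a log2 fold change of 7.26 ± 0.93 and an adjusted p of 0.0211 by edgeR. Its lower ASQC tumour exceeded the highest AC(NST) tumour 44.1-fold. The fold change stayed between 6.83 and 7.81 with any 1 tumour left out, but the call was lost without MS1163.1 (adjusted p = 0.0503), MS1218.2 (0.0602), MS1210.1 (0.116) or MS1349.1 (0.0891). Among the parous tumours alone it was 7.14 with an adjusted p of 0.252, again not a call. The squamous list stood at 4298 and 672 summed TPM in the ASQC tumours MS1210.1 and MS1349.1 and at 18.0 to 139 in the AC(NST) tumours, and the hair follicle list at 271 and 818 against 1.09 to 18.0. The squamous list, led by Krt16, had no gene at 0 in ASQC and Lor at 0 in every AC(NST) tumour, and the hair follicle list, led by Tchh, had no gene at 0 in ASQC and Hoxc13 at 0 in every AC(NST) tumour. Whether such cells carried Wif1 was not tested. The fibroblast and mesenchymal sums of the 2 ASQC tumours, 4101 and 1730, lay within the AC(NST) range of 1307 to 12257, and with that list as a covariate the fold change of Wif1 was 7.22 with an adjusted p of 0.0274 by edgeR.

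Sfrp2 had a log2 fold change of 2.42 ± 0.64 in ASQC, with an adjusted p of 0.256 by edgeR and 0.0331 by DESeq2, and its lower ASQC tumour exceeded the highest AC(NST) tumour 1.92-fold. With the fibroblast and mesenchymal level as a covariate edgeR called it, at 3.03 with an adjusted p of 0.0283. That fit called 41 of all 14007 genes. Dkk2 had 3.55 ± 0.98 with an adjusted p of 0.289 by edgeR, and Dkk3 1.86 ± 0.66 with 0.471. Without MS1349.1 the value of Dkk2 was 0.93, and without MS1210.1 that of Dkk3 was 0.80. Sfrp4 had -3.27 ± 1.27 with an adjusted p of 0.50 by edgeR. Sfrp1, at -0.38 ± 0.81 with 0.932, and Frzb, at 0.94 ± 1.48 with 0.899, overlapped between the histotypes, as did Sostdc1, at 1.62 ± 1.82 with 0.850. The value of Sostdc1 was 0.81 without MS1349.1 and 4.80 without MS1166.1, that of Sfrp4 -4.62 without MS1349.1, and that of Frzb 1.87 without MS1349.1.

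Of the inhibitors fitted higher in ASQC at an unadjusted p-value under 0.05, Sfrp2, Dkk2 and Wif1 had a promoter sequence at hand and Dkk3 had none (RefSeq, GRCm38.p6, matched by symbol for 6 of the 10 genes). Their promoters are shown because canonical Wnt target genes can carry TCF/LEF motifs near the start site. Capitals mark the letters CTTTGA or CTTTGT on either strand, the core of that motif, in the 250 bases before the RefSeq start. The Wif1 window is chr10:121033754-121034003, and the 206 bases printed end where the annotated gene begins. The windows of Sfrp2, chr3:83766071-83766320, and Dkk2, chr3:132085042-132085291, are printed whole, and all 3 are on the plus strand.
Wif1: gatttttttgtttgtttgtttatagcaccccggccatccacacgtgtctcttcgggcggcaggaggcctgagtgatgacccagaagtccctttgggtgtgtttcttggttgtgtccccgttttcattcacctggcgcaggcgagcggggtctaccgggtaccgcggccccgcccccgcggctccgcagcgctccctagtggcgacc
Sfrp2: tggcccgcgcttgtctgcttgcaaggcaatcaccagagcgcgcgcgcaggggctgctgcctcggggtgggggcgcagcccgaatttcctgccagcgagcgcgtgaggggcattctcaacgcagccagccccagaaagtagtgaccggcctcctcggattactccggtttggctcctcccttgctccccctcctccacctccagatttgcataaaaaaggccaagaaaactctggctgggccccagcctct
Dkk2: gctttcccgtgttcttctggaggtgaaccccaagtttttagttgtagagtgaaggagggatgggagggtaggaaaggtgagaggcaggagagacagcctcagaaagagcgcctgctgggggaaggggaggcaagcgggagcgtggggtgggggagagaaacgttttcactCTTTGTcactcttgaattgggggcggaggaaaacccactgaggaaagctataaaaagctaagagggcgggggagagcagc
Dkk2 held CTTTGT 1 time and no CTTTGA, and neither was found in the windows of Wif1 and Sfrp2. Of the other 3 matched genes, Frzb held CTTTGA 1 time, Dkk1 held CTTTGA 2 times and CTTTGT 1 time, and Sfrp5 held neither. CTTTGA occurred in 13.8%, CTTTGT in 16.5% and either of them in 27.6% of 32851 mouse promoter windows of this length. These letters come from the reference strain, not from the tumours.

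The third comparison set the 3 tumours of virgin mice against the 5 epithelial tumours of parous mice. None of the 8 tested inhibitors was called by edgeR, which called 0% of all genes, or by DESeq2, which called 3.57%. At an unadjusted p-value under 0.05 stood 2 of the 8, Wif1 and Sostdc1, against 14.2% of all genes. Wif1 was -6.05 ± 2.42 on the log2 scale, with an adjusted p of 0.330 by edgeR, and Sostdc1 -5.00 ± 1.82 with 0.312. With 1 tumour left out, Wif1 ran from -8.77 (without MS1163.2) to -4.98 (without MS1210.1) and Sostdc1 from -10.4 (without MS1213.1) to -4.43 (without MS1163.1), with no call. Without MS1213.1, the virgin tumours left were MS1163.1 and MS1163.2, both at 0 for Sostdc1, so -10.4 is not a measured fold. Parous tumours spanned 1.85 to 1507 normalized counts of Wif1 and 3.70 to 389 of Sostdc1, against 0.963 to 21.1 and 0 to 14.4 in the virgin tumours. The high-amplified parous tumours, MS1218.2 and MS1155.3, were within the virgin range for Wif1, and for Sostdc1 they had 3.70 and 19.3. Sfrp1 was 1.02 ± 0.63 with an adjusted p of 0.459, and no inhibitor separated the virgin from the parous tumours, against 9.25% of all genes. Divided by the epithelial list, Sfrp1 stood higher in every virgin tumour, as did 33% of all genes.

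The sarcoma, a single tumour with no test, lacked nearly all epithelial signal and had the highest fibroblast and mesenchymal sum. It lay outside the range of the 8 epithelial tumours for 4 of the 9 inhibitors that reached 10 normalized counts in some tumour, a share close to the 42.6% of 15518 such genes. Sfrp5 and Frzb were above all 8, as were 23.5% of those genes. Sfrp5 had 3262 normalized counts, 8.07 times the highest epithelial tumour, and Frzb had 354, or 4.78 times. Sfrp2, with 29.3, and Dkk2, with 5.58 from 4 counts, were below all 8, as were 19% of those genes. The epithelial median of Sfrp2 was 14.0 times the sarcoma's value.

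The remaining inhibitors lay within the epithelial range. Sfrp1 had 4111 in the sarcoma, 0.993 times the highest epithelial tumour, and Dkk3 had 626. Sfrp4 had 78.1 and Sostdc1 19.5, both close to the epithelial medians of 60.2 and 16.9. Wif1 had 1.40, which was 1 count, and was at the low end of the epithelial tumours. The sarcoma thus held Sfrp1, Sfrp5, Frzb, Dkk3 and, at lower counts, Sfrp4 and Sostdc1 with an epithelial list sum of 75.0 TPM, and held little Wif1, Sfrp2 and Dkk2 with a fibroblast and mesenchymal sum of 24793 TPM. Its skeletal muscle list summed to 1705 TPM, against 7.59 to 277 in the epithelial tumours, and whether muscle carried any of these genes was not tested.

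Of the other genes of the pathway, 4 lists were counted in the same way. Of 12 canonical targets and feedback genes, 11 entered the tests. By histotype edgeR called 2 as higher in ASQC, Axin2 and Apcdd1, both feedback inhibitors of the pathway, against 0.221% of all genes. Of the 11, 10 were fitted higher in ASQC, with a median log2 fold change of 2.27 beside -0.08 for all genes. Axin2 had 4341 and 5250 normalized counts in the ASQC tumours MS1210.1 and MS1349.1, 328 in MS1166.1, and 43.0 to 158 in the high-amplified tumours. Axin2 was the only gene of the 4 pathway lists called by edgeR by amplification, at -4.98 ± 0.78 with an adjusted p of 0.0296 by edgeR. By amplification edgeR called 0.921% of all genes. By histotype Axin2 had 5.10 ± 0.58 with an adjusted p of 0.0154 and Apcdd1 4.28 ± 0.66 with 0.0410. DESeq2 called 5 of these genes as lower in the high-amplified tumours, 5 as higher in ASQC and 2 as lower in the virgin tumours. In these comparisons it called 10.8%, 3.44% and 3.57% of all genes, in either direction.

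Of 19 receptors and co-receptors, 18 were tested and 1 was called, the Frizzled receptor Fzd10, at 4.70 ± 0.69 in ASQC with an adjusted p of 0.0303 by edgeR. As higher in ASQC, edgeR called 0.221% of all genes. The median of the receptor list by histotype was 0.04. DESeq2 called 3 receptors in each direction by amplification, 2 as higher and 1 as lower in ASQC, and 2 as higher and 3 as lower in the virgin tumours. None of the 12 tested Wnt ligands and none of the 6 tested other secreted modulators was called by edgeR in any comparison. Among these lists DESeq2 called 3 ligands and 1 modulator by amplification, 1 of each by histotype, and 1 modulator by parity, lower in the virgin tumours. The shares of all genes that DESeq2 called were 10.8% by amplification, 3.44% by histotype and 3.57% by parity. The largest fold changes by amplification were those of the ligand genes Wnt10a, -4.27 ± 1.43 with an adjusted p of 0.131 by edgeR, and Wnt6, -3.41 ± 1.39 with 0.184. Among the modulators they were Ndp, which encodes the Frizzled ligand norrin, at -2.97 ± 0.86 with 0.10, and the R-spondin gene Rspo3, at -2.47 ± 1.35 with 0.303. Notum, an extracellular Wnt deacylase named here after its values were seen, had 539 and 250 normalized counts in the ASQC tumours MS1210.1 and MS1349.1 and at most 6.44 elsewhere. Notum did not pass the filter for edgeR. DESeq2 called it in ASQC against AC(NST), at 7.86 with an adjusted p of 0.00918, and gave -7.01 with 0.0613 by amplification.

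The genes most like each inhibitor over the 8 epithelial tumours were found by the Pearson correlation of log2(normalized count + 1), given as a description over 8 points that share library and normalization. Those of Wif1 were Irx4 (r = 0.985), and Dsg1b (0.981) and Dsc3 (0.973), which encode desmosomal cadherins of stratified epithelia. Those of Sfrp4 were Olfml1 (0.987), the extracellular matrix gene Tnxb (0.984) and Ms4a8a (0.981). Those of Sostdc1 were Ets2 (0.983), Hsh2d (0.981) and Pard6b (0.978), and those of Sfrp1 were Sgip1 (0.982), Rnf152 (0.971) and Ptpre (0.969). Sfrp2 was closest to Il1r2 (0.984), Lactb (0.973) and Ephb2 (0.958), Dkk2 to Rprm (0.959), Prtn3 (0.954) and Camk1d (0.953), and Dkk3 to Bad (0.985), B3gat3 (0.984) and Tubg1 (0.983). Frzb was closest to Myzap (0.946), Rtn3 (0.919) and Rps6kb2 (0.916). Sfrp5, whose r rests largely on MS1349.1, was closest to the milk gene Glycam1 (0.951), Fut4 (0.946) and Alas1 (0.939).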

How the data were processed

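Total RNA from snap-frozen tumours was depleted of rRNA and made into strand-specific libraries, which were sequenced in pairs. The authors aligned reads to mouse genome build 38 with STAR, set for unstranded data and keeping unique positions, and counted them per gene with HTSeq. The strand setting of that counting is not given in the sources used here, so reads of overlapping genes may be shared. The deposited counts of all 9 tumours are whole, unscaled read counts. The deposited signal values of the 8 epithelial tumours are these counts divided by a size factor per tumour (0.776 to 1.42). The sarcoma's factor, 0.717, was computed here against the reference of the 8. Positions and exon lengths came from GENCODE, and TPM was computed here. The submitters' processing notes name FastQC, HTSeq, Cufflinks and DESeq2.

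Groups came from the labels. The 14007 genes that reached 10 counts in 3 or more epithelial tumours were compared with edgeR 4.0.16 (quasi-likelihood test, TMM normalization, Benjamini-Hochberg adjustment) and called at an adjusted p under 0.05 and a fold change over 2. The SE of a log2 fold change is its size divided by the square root of F. DESeq2 1.42.0 and limma 3.58.1 (pseudocounts of 1 and 10) were alternatives, under R 4.3.3, and all 3 tools were tested on simulated data. Each tumour was a replicate, MS1163.1 and MS1163.2 of the same mouse number included. The p-values set a difference against the spread between these tumours. Groups are called non-overlapping where the lowest tumour of one lay above the highest of the other. The SE includes the spread between tumours, while the floor of 3 counts covers counting error only. The genes, lists and tests were chosen with earlier results of these data known. Named are all 10 inhibitors, the 3 genes most correlated with each that reached 10 normalized counts, and, of the pathway lists, called genes or else the 2 with the largest fold change by amplification. Of the marker lists, the rule names the gene with the highest mean and any gene at 0. These are printed for the lists a result touches, and genes at 0 there by an example where there are many.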

Additional observations from a re-analysis of the deposited data

Results flagged for a closer look

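Looked at were 30 groups of 5 or 6 tumours, 1 for each inhibitor among the high-amplified, the AC(NST) and the parous epithelial tumours. Of these, 4 held a tumour far from the others on the log2 scale, where chance gives about 1 in 20. The groups share tumours, so the 4 are not independent and were not tested against that rate. Sfrp1 was low in MS1166.1, at 199 normalized counts against 1599 to 4142 in the other 5 AC(NST) tumours. Frzb was high in MS1210.1, at 60.5 against 1.29 to 2.92 in the other 4 parous epithelial tumours. Dkk1 stood out in MS1218.2 among both the high-amplified and the AC(NST) tumours, at 1.85, which was 2 counts, against 0 in the others. This is under the 3 counts that a count of 0 allows, so these 2 of the 4 cannot be told from 0.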

How the results depend on the processing

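Over all alternatives, 358 of the fold changes refitted for single inhibitors kept their direction and their side of the threshold, 18 became calls, 5 lost a call and 11 changed sign. By amplification, edgeR called 129 genes. This became 1598 with DESeq2, 229 without the filter, 210 with limma and a pseudocount of 10, 31 with MS1163.1 and MS1163.2 summed, 40 in the AC(NST) tumours alone and 761 with MS1218.2 set among the not/low-amplified tumours. It was 189 with limma and a pseudocount of 1, and 183 with the fibroblast and mesenchymal level as a covariate. It became 0 with parity as a covariate (2051 at an unadjusted p under 0.05) and 0 in the parous tumours alone (1423). Leaving out 1 tumour gave 1 (without MS1210.1) to 1255 (without MS1218.2). Of the inhibitors, 0 were called (6 at an unadjusted p under 0.05), but 3 with DESeq2, 2 without the filter, 2 with limma and a pseudocount of 1, 1 with a pseudocount of 10, 2 with the fibroblast and mesenchymal level as a covariate, and 0 to 3 with 1 tumour left out. By histotype the 33 genes called became 522 with DESeq2, 171 without the filter, 14 and 51 with limma at pseudocounts of 1 and 10, 18 with the tumours summed, 1 in the parous tumours alone, and 4 (without MS1349.1) to 84 (without MS1166.1) with 1 tumour left out. With the fibroblast and mesenchymal level as a covariate, 41 genes were called by histotype. The 1 inhibitor called became 4 with DESeq2, 2 with this covariate, 0 in the parous tumours alone (3 at an unadjusted p under 0.05) and 0 or 1 with 1 tumour left out. By parity edgeR called 0 genes (1984 at an unadjusted p under 0.05), DESeq2 516, and edgeR 0 to 147 (without MS1155.3) with 1 tumour left out. The amplification groups did not overlap for 2 of the 8 tested inhibitors, against 15.6% of all genes. With TPM divided by the fibroblast and mesenchymal list this became 4, of which 1 was higher in the high-amplified tumours and 3 in the others. The shares of all genes there were 0.744% and 4.03%. Divided by the epithelial list it became 3, of which 2 and 1, against 43.5% and 0.372% of all genes. Both ratios were chosen after seeing the data. With TMM over all 9 tumours, the same 4 inhibitors of the sarcoma lay outside the epithelial range. The cause of these changes was not tested.

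Some signs turned. By amplification Frzb, where it passed the filter, ran from -0.71 without MS1349.1 to 0.10 without MS1155.3, was -3.32 with parity as a covariate, 0.07 without MS1163.2 and 0.09 without MS1218.2, and was 0.43 with MS1218.2 in the other group. Dkk2 ran from -3.33 without MS1166.1 to 0.14 without MS1349.1 and was 2.61 in the AC(NST) tumours alone, where Sfrp2 was 0.84. By histotype Sfrp1 ran from -1.04 without MS1210.1 to 0.059 without MS1349.1 and was 0.28 in the parous tumours alone. By parity Sfrp4 ran from -0.12 without MS1163.2 to 2.17 without MS1218.2 and was -0.85 in the high-amplified tumours alone. With 1 not/low-amplified or 1 ASQC tumour left in a group, that tumour is assumed to vary like the others. Frzb, Wif1 and Sostdc1 did not pass the filter in every subset and then had no value. No paired analysis was possible because the replicate numbers follow accession order and pair no tumours. At 3 counts, values under 2.11 to 4.19 normalized counts cannot be told from 0, which covers Dkk1 in all tumours but MS1349.1, Wif1 in MS1213.1, MS1163.1, MS1218.2 and the sarcoma, Sfrp5 in 6 epithelial tumours, Frzb in MS1155.3 and MS1166.1, and Sostdc1 in MS1163.1 and MS1163.2.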

Other observations

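Other gene lists give context to the tumours in which single inhibitors were high. MS1349.1, with 404 normalized counts of Sfrp5 and 959 of Dkk2, had the highest hair follicle sum, 818 TPM against 271 in MS1210.1. MS1210.1, with the highest Dkk3 and one of the 2 high values of Frzb among the epithelial tumours, had the highest basal and myoepithelial sum, 7762 TPM against 1371 in MS1349.1, and the lowest adipocyte sum, 1.13 TPM, with Cidec at 0. MS1163.2 had the highest skeletal muscle sum of the epithelial tumours, 277 TPM, and the highest Sfrp1 count of all 9 tumours. The endothelial list lay between 105 and 742 TPM in the epithelial tumours and at 226 in the sarcoma. The sarcoma also had 516 normalized counts of the ligand gene Wnt6, against 0 to 125 in the epithelial tumours. These are values of single tumours, and no relation between them was tested.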
